A study of Bos taurus with 13 samples.

Results

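SRPRA, TRAM1, SPCS2, EMC2, EMC3, SAR1A, MCFD2, YIPF5 and BET1 encode proteins that bring new polypeptides into or across the membrane of the endoplasmic reticulum (ER) or carry them from there to the Golgi. The 9 genes were chosen by symbol for that role, as all spots of a bovine mammary cDNA microarray that the platform annotation gives to one of them. They account for 27 of 3888 spots and for 9 of the 706 genes named by a single symbol. Each gene was printed as 1 clone in 3 consecutive spots, and 0 of their 351 spot values over 13 arrays were missing.

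The series holds 13 two-colour hybridisations, of which 12 were used for the comparisons. On 2 arrays lactating mammary gland was hybridised against prepubertal gland, from a Holstein heifer of 136 kg (array 1) or 227 kg (array 2). A keyword of array 2 names a post-pubertal stage, while its title and channel label name a prepubertal gland; the title was followed, and if the keyword held, array 2 and the mean of both arrays would compare another stage. On 8 arrays a tissue was hybridised against RNA of the BovMac cell line: spleen, thymus, lymph tissue, liver, ileum, adrenal tissue, adipose tissue, and prepubertal mammary gland of a 136 kg Holstein heifer. On 2 arrays the cell line RNA was hybridised against itself, which shows how far a ratio strays when both channels hold the same RNA. The labels give no age, number of animals or pooling for any of these RNAs, and do not say whether the lactating arrays shared an RNA, so the p-values below measure only spread between hybridisations. For each gene that spread was drawn mostly from all genes together rather than from its own 2 arrays. Some alternative settings also drew it from the reference against reference arrays.

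The signal recognition particle binds a signal sequence as it leaves the ribosome and docks at its receptor, of which SRPRA is the alpha subunit. The chain then enters the Sec61 channel, beside which TRAM1 sits, and the signal peptidase complex, with SPCS2 as an accessory subunit, removes the signal sequence. The ER membrane protein complex, with EMC2 as a cytosolic and EMC3 as a membrane subunit, inserts membrane segments that the channel handles poorly. Cargo leaves in COPII vesicles, whose coat is started by the small GTPase SAR1A. MCFD2 works with the lectin LMAN1 as a receptor for certain glycoproteins in these vesicles, YIPF5 is a membrane protein that cycles between ER and Golgi, and BET1 is a SNARE of vesicle fusion on the way to the Golgi. Secretory cells of the lactating gland pass milk proteins along this route.

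Values are deposited log ratios of unstated base, centred on the array median and averaged over the spots of each gene (3 for each of the 9 genes), and are called log units. A log unit would be 2-fold in base 2, and more in the natural log. The dyes are not named. On the lactating arrays alpha-S1 casein (CSN1S1) lay at 1.61 and 2.56 and beta-casein (CSN2) at 0.76 and 0.79 on the positive side. Of the 9 measured milk secretion genes 8 had a positive mean; the exception was MUC1 (-0.10), and CSN1S2 on array 1 (-0.19) and CSN3 on array 2 (-0.16) were also negative. Positive is therefore likely the side of more RNA in lactating gland. For the tissue arrays the direction is unsettled: signs are those of the deposited ratio, and every higher or lower among tissues would swap if the sign were turned. The median SD over the spots of a feature was 0.11 and 0.17 on the lactating arrays, 0.06 to 0.10 on the tissue arrays, and 0.10 and 0.30 on the reference against reference arrays. Of the marker lists used to check the tissue labels, 3 of 9 mammary epithelium genes, 4 of 12 stroma genes, 5 of 10 leukocyte genes and 3 of 10 hepatocyte genes were printed, and 0 adipocyte, adrenal, ileum epithelium or T cell genes, so most labels could not be checked. The rest were not clearly borne out in the deposited sign. The 3 hepatocyte genes ran from -1.10 to 0.21 in liver, with a median of -0.27. The 3 mammary epithelium genes had a median of 0.05 in mammary gland and 0.72 in ileum. In spleen and lymph tissue the 5 leukocyte genes had medians of -0.09 and -0.10, with highest values of 1.04 and 1.03. In ileum their median was 0.85 and their highest value 3.17. Every tissue value is a ratio to the cell line RNA, whose own level of a marker enters it, so these checks cannot settle a label. In whole tissue, fewer cells of a type and less RNA per cell cannot be told apart.

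EMC2 stood far to the casein side in lactating gland. It lay at 2.12 on array 1, with spots from 2.01 to 2.22, and at 2.17 on array 2, with spots from 1.67 to 2.45. All 6 spots were therefore well above 0, whichever heifer was the partner. On the reference against reference arrays EMC2 was at -0.48 and 0.28, so the 2 groups of arrays did not overlap. The mean of the lactating arrays was 2.14 ± 0.03 (SD, n = 2), with an adjusted p of 6.65e-08 by limma over 697 genes. It was the 9th highest mean of the 697 genes. Set against the average of both reference against reference arrays, the difference was 2.24, with an adjusted p of 0.0283 by limma. EMC2 kept its call under all 10 alternative settings, with means of 1.5 to 2.24 and adjusted p of 3.33e-20 to 0.0372 by limma. The smallest of these p came without centring, where the mean was lower, at 2.04. With 2 arrays its size rests on spread drawn from all genes, so it is not stronger evidence than the main test. The settings on spot filters and features per gene could not move the EMC2 mean of 2.14, as EMC2 was 1 clone with 3 spots.

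**Figure D1:**
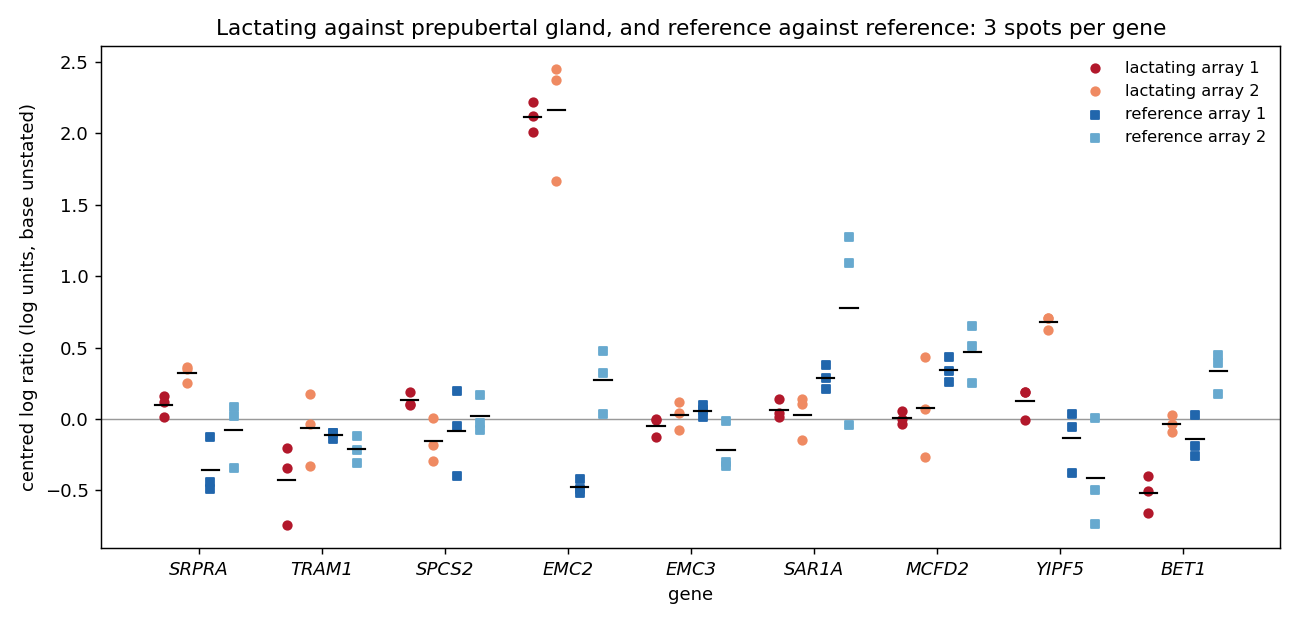
Centred log ratio (log units) of each of the 3 spots of the 9 genes on the 2 lactating arrays (circles) and the 2 reference against reference arrays (squares, called reference array 1 and 2); short bars are the means of 3 spots. The EMC2 spots on the lactating arrays, from 1.67 to 2.45, lie above all other spots drawn, of which the highest belongs to SAR1A on reference array 2.

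None of the other 8 genes passed. Limma called 103 of the 697 genes (14.8%), 79 towards casein (11.3%) and 24 away from it (3.44%), so 1 call among 9 genes is close to the share over all genes. The split was 52 towards casein and 32 away from it without centring, and 29 and 1 with arrays scaled to the same median absolute deviation. With array 1 left out 49 genes were called, and with array 2 left out 24. Contrasted with the pair of reference against reference arrays, 13 of 678 genes (1.92%) were called, EMC2 among them. CSN1S1 and CSN2 did not pass that contrast (adjusted p = 0.0686 and 0.0803, limma). At an unadjusted p under 0.05, 2 of the 9 genes stood out, EMC2 and YIPF5, against 28.8% of all genes. The median of the 9 genes was 0.04, beside -0.00027 over all genes, with 5 genes positive and 4 negative.

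EMC3, which encodes another subunit of the EMC2 complex, lay at -0.05 and 0.03 on lactating arrays 1 and 2. Its mean was -0.01 ± 0.05 (SD, n = 2; adjusted p = 0.977, limma), and its 6 spots lay between -0.13 and 0.12. The 2 subunits thus had ratios about 2 units apart on each array; that difference was not tested.

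Among the genes of targeting and translocation, SRPRA lay at 0.10 and 0.32 on lactating arrays 1 and 2, against -0.35 and -0.08 on the reference against reference arrays. Both lactating values lay above both others, but the mean of 0.21 ± 0.16 did not pass (adjusted p = 0.414, limma), nor did the contrast of 0.43 (adjusted p = 0.306, limma). TRAM1 lay at -0.43 on array 1 and -0.06 on array 2, against -0.11 and -0.21 on the reference against reference arrays. Its spots spread widely on both lactating arrays, from -0.75 to -0.20 on array 1 and from -0.33 to 0.18 on array 2, and the mean was -0.24 ± 0.26 (adjusted p = 0.345, limma). SPCS2 changed sign between the arrays, at 0.13 and -0.15, with a mean of -0.01 ± 0.20 (adjusted p = 0.970, limma).

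Of the genes of ER exit and vesicle traffic, YIPF5 was the nearest to passing. It lay at 0.12 on array 1 and 0.68 on array 2, against -0.13 and -0.41 on the reference against reference arrays. The 3 spots of array 2 lay between 0.62 and 0.71, so the difference between the lactating arrays exceeded the spread over spots. The mean was 0.40 ± 0.39 (adjusted p = 0.124, limma; unadjusted p = 0.0300), and it was set mostly by array 2. BET1 did the reverse, at -0.52 on array 1, with spots from -0.66 to -0.40, and -0.03 on array 2, with spots from -0.09 to 0.03. Its mean was -0.28 ± 0.34 (adjusted p = 0.300, limma), and the reference against reference values of -0.14 and 0.34 overlapped it. SAR1A lay at 0.06 and 0.03, and MCFD2 at 0.01 and 0.08. Both were closer to 0 on the lactating arrays than on the reference against reference arrays, where SAR1A was at 0.29 and 0.78 and MCFD2 at 0.34 and 0.47. SAR1A had spots of -0.04 to 1.28 on reference against reference array 2.

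**Figure D2:**
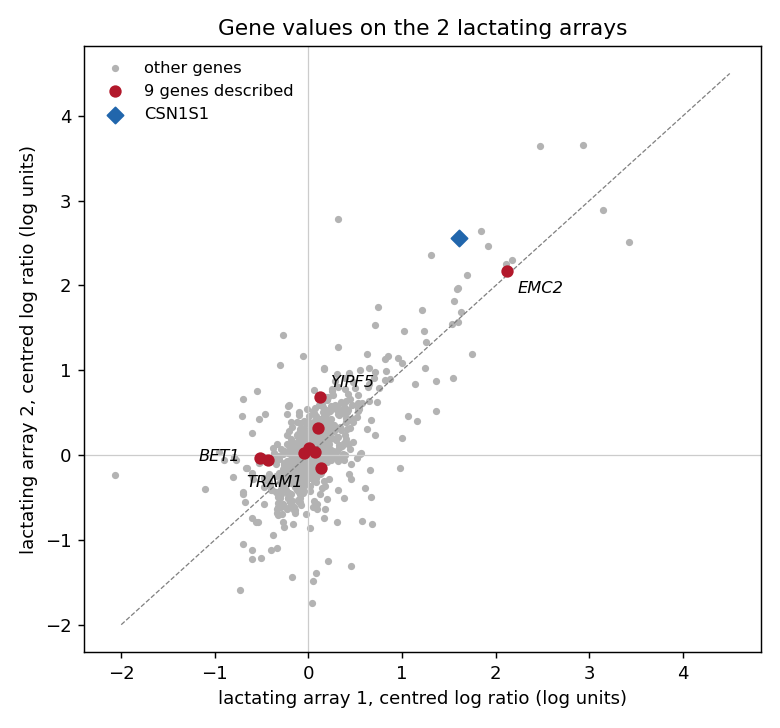
Gene values (log units) on lactating array 1 (horizontal) and array 2 (vertical) for all 697 genes with a value on both; red points are the 9 genes, the blue diamond is CSN1S1 and the dashed line marks equal values. EMC2 lies on the line at 2.12 and 2.17, YIPF5 is high only on array 2, and BET1 and TRAM1 are low only on array 1.

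Other genes of the same route were looked up in a list of 132, of which 12 were measured: SEC61A2, SEC63, BCAP31 and STT3A of translocation and membrane insertion, and SEC23B, SEC22B, YIPF1, TMED5, TMED10, KDELR3, ARCN1 and GORASP2 of traffic between ER and Golgi. In lactating gland 0 of the 12 passed limma on either side, against 14.8% of all genes. At an unadjusted p under 0.05 there was 1, against 28.8% of all genes. Of the 12, 8 were negative, against 349 of all 697 genes. The median of the 12 was -0.04, or -0.11 after the average of both reference against reference arrays was subtracted. There 0 passed as well, against 1.92% of all genes. ARCN1, a subunit of the COPI coat of return traffic, was the farthest from 0, at -0.21 and -0.63 with a mean of -0.42 ± 0.29 (adjusted p = 0.0909, limma). SEC22B, a SNARE of the same step as BET1, lay at -0.13 and -0.41, with a mean of -0.27 ± 0.20. BCAP31, an ER membrane protein that escorts membrane cargo, lay at -0.19 and -0.20. TMED10, a cargo receptor of the p24 family, had a mean of -0.19 ± 0.10, from a clone at -0.46 and another at 0.09. KDELR3, a receptor that returns ER residents, had a mean of 0.07 ± 0.23, and SEC61A2, an alpha subunit of the channel, 0.07 ± 0.12. With the 8 genes above, none of the 20 other measured genes of the route passed beside EMC2. Their means ran from -0.42 (ARCN1) to 0.40 (YIPF5), beside 2.14 for EMC2. The share called over all genes was 14.8%, and the difference between EMC2 and the rest of its route was not tested.

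Gland composition was read beside EMC2 from the marker lists. Of the milk secretion genes 2 of 9 passed, with means of -0.10 to 2.09. The 3 epithelium genes KRT7, EPCAM and ELF5 had means of -0.25 to 0.14 and 0 passed. Of the leukocyte genes 1 of 5 passed, RAC2 at -0.53, while the others lay between -0.17 and 0.08. Of the stroma genes 1 of 4 passed, COL5A2 at 0.57, while COL6A1 (-0.09), POSTN (-0.21) and TNC (-0.38) were negative. Over all genes 14.8% passed, so these small counts say little about composition. The part of gland composition in the EMC2 value was not tested.

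Across the 8 tissues the 9 genes stayed within 1 unit of 0. EMC3, BET1, EMC2, TRAM1 and MCFD2, 5 of the 9, had a wider range over tissues than the median gene at 0.52 units. Without ileum the median gene was at 0.42 units, and YIPF5 at 0.46 exceeded it too. Ranks by range below include ileum. Without it EMC3 ranked 33, BET1 46, EMC2 84 and SPCS2 507. The 72 values of the 9 genes ran from -0.77 to 0.46, with 34 positive, 38 negative and a median of -0.05. 0 of the 72 lay at least 1 unit from 0, against 1.01% of all gene values on these arrays. 1 lay at least 0.5 units from 0 (1.39%), against 4.27% of all gene values and 8.31% of gene values on the reference against reference arrays. 15 of the 72 (20.8%) were farther from 0 than the gene was on either reference against reference array, against 28% of all gene values. The shares of all genes at 0.5 and 1 unit were carried largely by the ileum array, on which 17.3% of genes lay at least 0.5 units from 0. Without it they were 2.42% and 0.285%, beside 1 (1.59%) and 0 of 63 values of the 9 genes, close to the background. Each tissue had 1 array, so there is no test between tissues, and errors below are SDs over 3 spots.

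**Figure D3:**
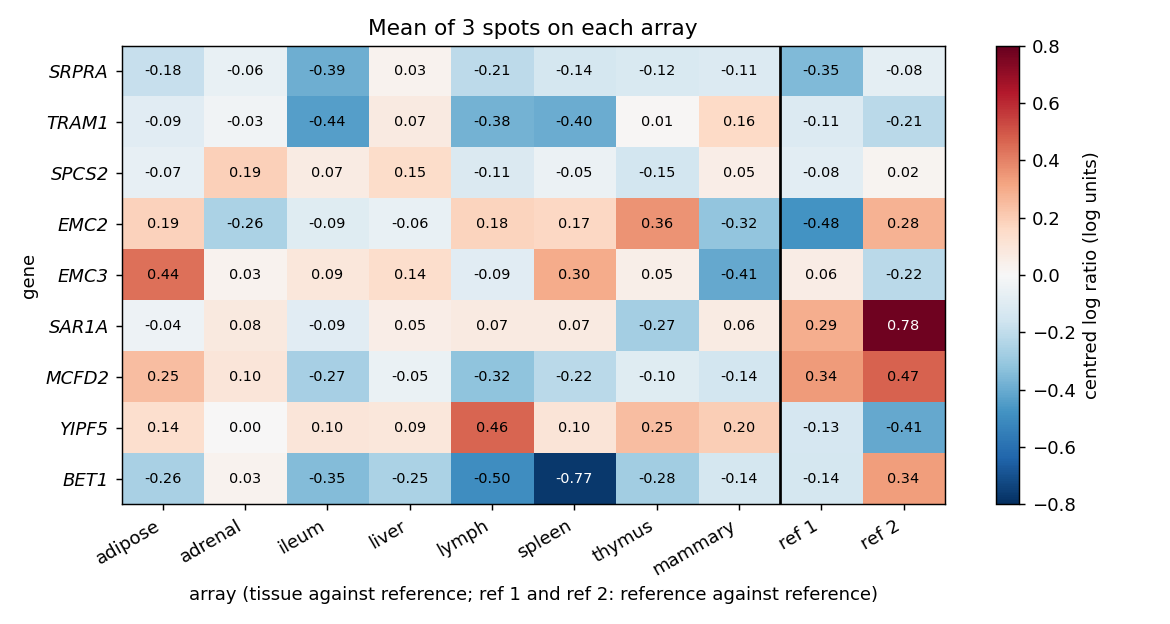
Mean centred log ratio (log units, colour and number) of the 9 genes in rows on the 8 tissue arrays and, right of the black line, the 2 reference against reference arrays (ref 1 and ref 2). The lowest cell is BET1 in spleen at -0.77 and the highest tissue cell YIPF5 in lymph tissue at 0.46, while SAR1A reaches 0.78 with the same RNA in both channels.

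BET1 gave the value farthest from 0. It lay at -0.77 ± 0.04 in spleen, with spots from -0.80 to -0.72, the most negative value of all 702 genes on that array, where 2.42% of genes lay at least 0.5 units from 0. GLO1 followed at -0.71 and LYPD5 at -0.71. Lymph tissue came next for BET1 at -0.50 ± 0.06, the 12th lowest of 704 genes, and the spot ranges of spleen and lymph tissue did not overlap. Ileum lay at -0.35 ± 0.03, thymus at -0.28 ± 0.05, adipose tissue at -0.26 ± 0.12, liver at -0.25 ± 0.03 and mammary gland at -0.14 ± 0.10. Adrenal tissue stood alone on the positive side at 0.03 ± 0.04, for a range of 0.81 units (rank 114 of 695 genes). From ileum to mammary gland the spot ranges of neighbours overlapped, while lymph tissue lay below ileum and adrenal tissue above mammary gland without overlap. Against the reference against reference values of -0.14 and 0.34, spleen, lymph tissue and ileum were farther from 0 than either. Ileum was so only by a small margin, at -0.345 against 0.336. In spleen the 5 leukocyte genes ran from -0.47 to 1.04 with a median of -0.09, and in lymph tissue from -0.35 to 1.03 with a median of -0.10; their part in the BET1 value was not tested.

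TRAM1 fell into a low and a middle group of tissues. It was at -0.44 ± 0.05 in ileum, -0.40 ± 0.05 in spleen and -0.38 ± 0.04 in lymph tissue, and the spots of these 3 overlapped. After a gap of 0.29 without overlap came adipose tissue at -0.09 ± 0.05, adrenal tissue at -0.03 ± 0.05, thymus at 0.01 ± 0.20, liver at 0.07 ± 0.08 and mammary gland at 0.16 ± 0.06. The 3 low tissues lay below the reference against reference values of -0.11 and -0.21, and the other 5 above them.

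The receptor subunit SRPRA was negative in 7 of 8 tissues. Ileum was lowest at -0.39 ± 0.15, apart from lymph tissue at -0.21 ± 0.04, and liver highest at 0.03 ± 0.03, apart from adrenal tissue at -0.06 ± 0.01. Adipose tissue (-0.18), spleen (-0.14), thymus (-0.12) and mammary gland (-0.11) lay between with overlapping spots. The reference against reference arrays gave -0.35 and -0.08, a span that held 5 of the 8 tissue values. SPCS2 had the smallest range of the 9, 0.34 units from thymus at -0.15 ± 0.09 to adrenal tissue at 0.19 ± 0.02, rank 595 among the 695 genes with a value in all 8 tissues.

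Both subunits of the ER membrane protein complex had their lowest tissue value in prepubertal mammary gland. EMC2 lay there at -0.32 ± 0.37 and EMC3 at -0.41 ± 0.43, in both cases with 1 spot close to 0 and the others down to -0.68 and -0.84. For EMC2, adrenal tissue followed at -0.26 ± 0.08, ileum at -0.09 ± 0.18, liver at -0.06 ± 0.27, spleen at 0.17 ± 0.14, lymph tissue at 0.18 ± 0.14, adipose tissue at 0.19 ± 0.04 and thymus at 0.36 ± 0.27. All 8 values lay closer to 0 than the -0.48 of reference against reference array 1, and no neighbours in the order had separate spots. EMC3 was highest in adipose tissue at 0.44 ± 0.48 and in spleen at 0.30 ± 0.22, and its SD over spots reached 0.51 in lymph tissue, the largest of any of the 9 genes in a tissue. Its range of 0.85 units, the widest of the 9 and rank 96 of 695 genes, therefore rests on spots that disagreed, while EMC2 had a range of 0.68 units (rank 183).

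YIPF5 was positive in all 8 tissues. Lymph tissue was highest at 0.46 ± 0.01, with spots of 0.46 to 0.47, and stood apart from thymus at 0.25 ± 0.10. Mammary gland lay at 0.20 ± 0.16, adipose tissue at 0.14 ± 0.04, spleen at 0.10 ± 0.04, ileum at 0.10 ± 0.14, liver at 0.09 ± 0.06 and adrenal tissue at 0.00 ± 0.13, all with overlapping neighbours. The reference against reference arrays were both negative, at -0.13 and -0.41, so all 8 tissues lay above them. Spleen and lymph tissue, the lowest pair for BET1, therefore differed for YIPF5, by more than the spread over spots.

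MCFD2 was positive in adipose tissue at 0.25 ± 0.06 and in adrenal tissue at 0.10 ± 0.14, and negative elsewhere, down to -0.27 ± 0.11 in ileum and -0.32 ± 0.03 in lymph tissue. Spots of neighbouring tissues overlapped all along its order. It was at 0.34 and 0.47 on the reference against reference arrays, above all 8 tissues. SAR1A held 7 tissues between -0.09 and 0.08, with thymus apart at -0.27 ± 0.07. It too was higher on both reference against reference arrays, at 0.29 and 0.78, than in any tissue. For MCFD2 and SAR1A the same RNA in both channels thus gave ratios farther from 0 than any tissue did.

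**Figure D4:**
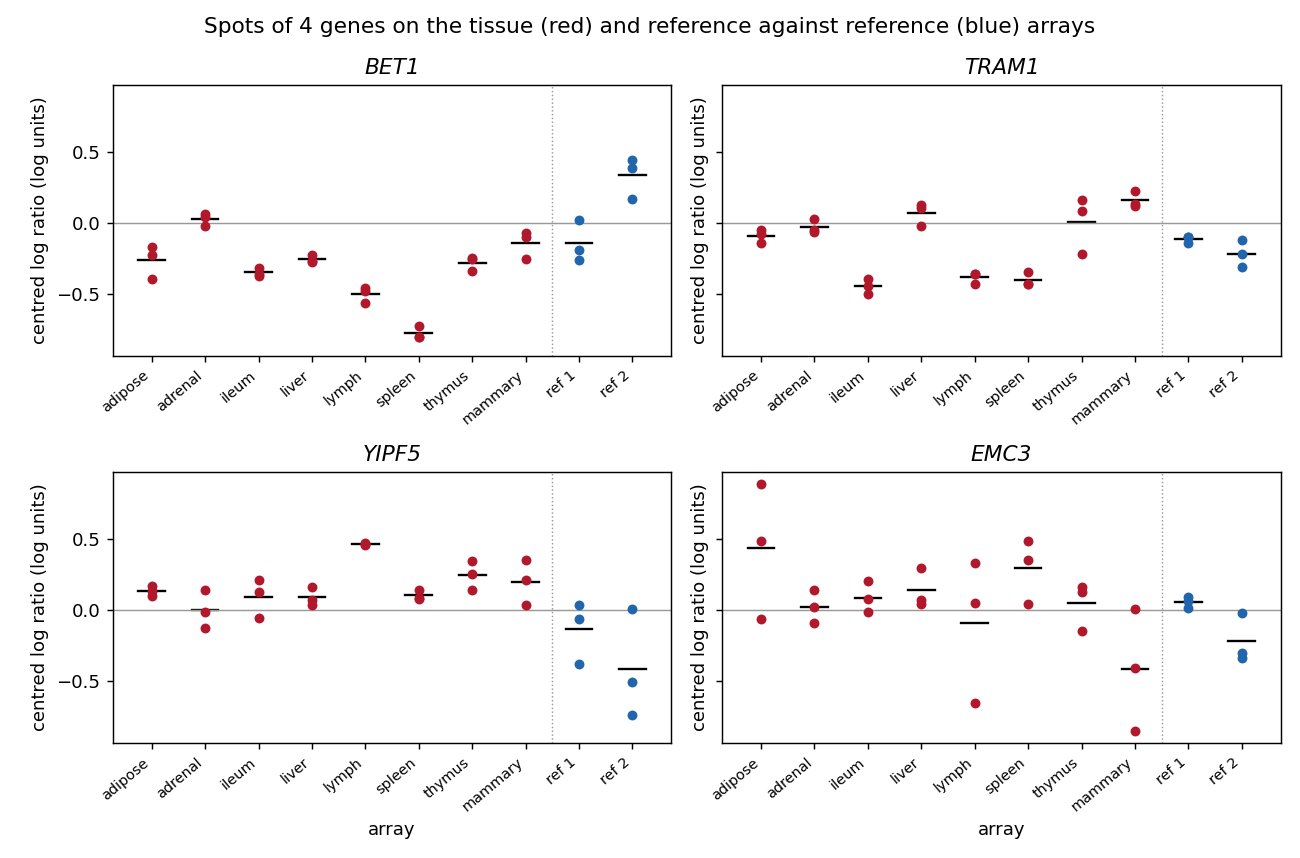
Centred log ratio (log units) of each spot of BET1, TRAM1, YIPF5 and EMC3 on the 8 tissue arrays (red) and the 2 reference against reference arrays (blue, ref 1 and ref 2); bars are means of 3 spots. The spots of BET1 in spleen and of YIPF5 in lymph tissue lie close together, while those of EMC3 in adipose, lymph and mammary tissue are spread over more than 0.8 units.

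The genes with the most similar tissue pattern were taken by Pearson r over the 8 tissue arrays, among 694 other genes. All points share the reference RNA, 1 array serves all genes of a tissue, and each r was picked as the highest of many, so they are given as a description. BET1 was closest to NBN, a DNA repair protein (r = 0.98), and to DERL1, a channel protein of ER-associated degradation (r = 0.96). DERL1 lay at -0.35 in spleen and -0.29 in lymph tissue, its lowest tissues as for BET1. TRAM1 was closest to BCAP31 (r = 0.88), which was at -0.46 in spleen, -0.42 in ileum and -0.24 in lymph tissue, and to CTR9 (r = 0.88). SRPRA was closest to RAB3D, a GTPase of secretory granules (r = 0.93, or 0.80 without ileum), and to ATF4 (r = 0.90, or 0.78 without ileum). For EMC2 these were AKTIP (0.93) and MAGED1 (0.86), for EMC3 LASP1 (0.79) and EFTUD2 (0.71), for SPCS2 DTNB (0.90) and MAOA (0.90), for SAR1A NFE2L1 (0.95) and GNAI3 (0.89), for YIPF5 LIMA1 (0.90) and SLC37A2 (0.88), and for MCFD2 ZZZ3 (0.91) and GLO1 (0.90). Within the 9, the highest r was that of SRPRA and TRAM1 at 0.73, which was 0.61 without ileum, where TRAM1 and BET1 (0.82) and SPCS2 and SRPRA (0.80) were higher. The lowest was that of SPCS2 and EMC2 at -0.86, or -0.85 without ileum, and EMC2 and EMC3 had 0.54.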

How the data were processed

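Two-colour log ratios of 13 arrays were taken from the deposited series table, 3888 spots per array; what the authors did in scanning, background correction, normalization and log transformation is not given in the sources used here. The 9 genes, the gene lists and the tests were chosen with earlier results of these data known. Genes were named through the platform annotation (2538 spots with 1 gene, 30 with several, 1320 with none), and all 9 symbols matched RefSeq by gene identifier. An exact 0 (124 to 373 spots per array) was taken as missing, arrays were centred on the median (deposited medians -0.0997 to 0.0304), spots were averaged by accession with at least 2 spots, and features by gene. Tissue arrays correlated pairwise between -0.15 and 0.59 over spots.

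The mean of the 2 lactating arrays was tested against 0, two-sided, over 697 genes with limma 3.58.1 (lmFit, eBayes) in R 4.3.3, with Benjamini-Hochberg adjustment at 0.05. Most of its 14.5 total degrees of freedom came from the prior and 1 from the arrays. The test was tried on simulated data, with normal noise of the same size on lactating and reference against reference arrays. The measured arrays differed in noise, so that trial does not vouch for the counts of calls given here. Distances of 1 and 0.5 log units described single arrays; the comparison with both reference against reference values of a gene was added after the values were seen. Genes named were the 9, the 6 other genes of the route farthest from 0 on the lactating arrays (fewer than 6 passed), and for each of the 9 the 2 genes of highest r over the tissue arrays. Genes cited for composition, DERL1's tissue values and the next lowest genes in spleen were added after their values were seen. Python 3.11.15, numpy 2.4.6, pandas 2.3.3 and matplotlib 3.10.9 did the rest. The number of arrays limits the precision. Alternatives are given below; no coordinates or sequences were used.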

Additional observations from a re-analysis of the deposited data

Results flagged for a closer look

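BET1 lay at -0.35 on the array that set prepubertal gland (136 kg heifer) against postpubertal gland (310 kg heifer), which no comparison above uses. It was singled out because that is farther from 0 than its values with the same RNA in both channels, -0.14 and 0.34, by a small margin in the second case. The share of all genes that meet this rule on that array was not counted. On the 8 tissue arrays 28% of all gene values met it, so meeting it is not unusual. The 3 BET1 spots on the prepubertal against postpubertal array lay between -0.41 and -0.29, and 9 of 697 genes on that array were lower. The other 8 genes lay between -0.09 and 0.15 there, with a median SD over spots of 0.32 for the 9 genes. With 1 array there is no test, and the direction is unsettled.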

How the results depend on the processing

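Of the results on the 9 genes, the call of EMC2 and the lack of a call for the other 8 held under all 10 alternatives, with adjusted p of 0.0939 or more for the 8 (limma). The alternatives on spot filters and features per gene could not move the values of the 9 genes, each 1 clone with 3 spots. The count of all genes called, 103, moved to 30 with arrays scaled to the same median absolute deviation, 32 with exact 0 kept as a value, 38 with a spread shared with the reference against reference arrays and 13 in contrast with them, and lay between 24 and 49 with 1 lactating array left out. The count of features called, 136, moved to 51, 26, 62 and 20 in the same order, and lay between 20 and 41 with 1 array left out. The cause was not tested, except that leaving out an array leaves fewer samples, and a lone array is assumed to vary like the reference against reference arrays. Without centring 84 genes were called, 52 towards casein and 32 away from it, against 79 and 24 with it. The same split was 29 and 1 for scaled arrays, 32 and 0 with exact 0 kept, 36 and 2 with the shared spread and 13 and 0 in the contrast. Near 0 the side of a gene depended on the setting: SPCS2 turned to 0.0092 with scaled arrays and 0.021 in the contrast, and ran from -0.15 to 0.13 with 1 array left out, EMC3 turned to 0.070 in the contrast and ran from -0.047 to 0.029, SAR1A turned to -0.050 without centring and -0.49 in the contrast, and MCFD2 to -0.054 and -0.36. In the tissues, BET1 in spleen would be 0.77 with the sign turned and kept -0.80 to -0.75 otherwise; with scaled arrays 2 values in place of 1 lay at least 0.5 units from 0, EMC3 in adipose tissue being added at 0.77. No paired analysis was possible beyond the ratio within each array, which already pairs lactating with prepubertal RNA. The labels of these arrays carry no replicate numbers to pair with another group. Intensities were not used here, so brightness over background could not be weighed.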
